A study of Mus musculus with 15 samples.

Results

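VSG158 and VSG159 are coded compounds that the treatment protocol names among glucocorticoids, and their effects on gene expression were compared directly in a macrophage-like mouse line, RAW264.7. The comparison took the 3 arrays whose titles name VSG158 and the 3 whose titles name VSG159, 6 of the 15 arrays in the series. Cells had 1 h with the compound, at a dose of 100 nM, and then 16 h with lipopolysaccharide (LPS) at 1 ug/ml. LPS is an outer-membrane component of bacteria that macrophages sense through Toll-like receptor signalling. The other 9 arrays held vehicle (labels EtOH and DMSO), dexamethasone (DEX) and fluticasone furoate (FF), with 3 each, and the steroids had the same dose and times. All groups shared the cell line and the protocol with LPS, although the vehicle labels name solvents alone. The labels number 3 replicates per treatment, although the series text speaks of duplicates, and no label says that they were separate cultures. The spread behind each p-value may therefore be technical. No genotype differed between the groups.

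Glucocorticoids enter cells and bind the glucocorticoid receptor, which is held by chaperones in the cytoplasm until ligand arrives. The receptor then acts in the nucleus: it switches on genes such as Fkbp5 and Tsc22d3 through its own DNA elements, and it lowers transcription driven by NF-kB, AP-1 and interferon regulatory factors. In macrophages stimulated with LPS this dampens cytokines, chemokines, nitric oxide synthesis and the interferon response. Ligands of the same receptor can differ in how strongly they do each of these things, and the direct comparison asks whether VSG158 and VSG159 differed at the matched dose.

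The promoters of 4 of the genes followed throughout are shown first, because they carry the sites through which LPS and interferon are known to act on them. These are the 250 bases upstream of the start given by RefSeq (GRCm38.p6), 5′ to 3′ on the gene's strand. Capitals mark the core of the interferon-stimulated response element (GAAA, any 2 bases, GAAA), on either strand. They also mark a narrow form of the NF-kB site (GGGA, any base, TTTCC), on either strand. Other forms of the NF-kB site were not searched or marked, so a window without that mark may still hold them. The windows are chr5:92348890-92349139 (minus strand), chr19:34640639-34640888 (plus strand), chr12:26456453-26456702 (minus strand) and chr5:30012864-30013113 (plus strand).
Cxcl10: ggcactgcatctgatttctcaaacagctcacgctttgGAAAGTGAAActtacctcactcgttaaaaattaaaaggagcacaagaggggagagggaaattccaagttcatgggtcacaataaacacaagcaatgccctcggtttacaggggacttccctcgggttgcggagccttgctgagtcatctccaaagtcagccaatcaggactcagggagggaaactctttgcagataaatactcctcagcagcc
Ifit1: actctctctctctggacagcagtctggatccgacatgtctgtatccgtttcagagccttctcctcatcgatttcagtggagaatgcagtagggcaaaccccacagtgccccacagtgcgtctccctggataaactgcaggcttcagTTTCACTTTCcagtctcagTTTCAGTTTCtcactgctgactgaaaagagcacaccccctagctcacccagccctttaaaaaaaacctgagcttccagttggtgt
Rsad2: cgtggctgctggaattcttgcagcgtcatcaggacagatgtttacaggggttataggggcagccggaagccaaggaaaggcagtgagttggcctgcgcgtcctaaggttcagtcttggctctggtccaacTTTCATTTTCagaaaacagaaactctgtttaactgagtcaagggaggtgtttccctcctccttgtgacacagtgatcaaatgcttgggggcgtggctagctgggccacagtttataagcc
Il6: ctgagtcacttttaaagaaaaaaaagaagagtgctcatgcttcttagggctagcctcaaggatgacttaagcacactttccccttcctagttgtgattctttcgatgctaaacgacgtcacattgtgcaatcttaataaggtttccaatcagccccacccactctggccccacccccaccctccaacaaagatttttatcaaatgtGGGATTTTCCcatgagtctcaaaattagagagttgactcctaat
Of 24 key genes, 18 had a RefSeq promoter, 22 windows in all. The interferon element core was in 3 of these windows, against 2.98% of all 32851 promoters of that length, and the NF-kB letters were in 1, against 0.356%. The core of the glucocorticoid response element, searched by name, was in 0 of the 22 windows and in 0.387% of all promoters. A match describes letters, not binding. All 4 printed genes fell with both compounds against vehicle in the fit described below, and their levels under the 2 compounds are given below with those of the other key genes.

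Expression was read with one-colour Agilent arrays, where a gene's level is the log2 processed signal of its brightest tested probe minus the array's 75th percentile. A level of 0 is thus as bright as that percentile. The 6 arrays had between 39.6% and 50.4% of their spots well above background, none was saturated, and 19500 genes could be compared. All 18 macrophage and monocyte markers, among them Csf1r, Cd68, Lyz2 and Adgre1, were above background on all 6 arrays. Some marker genes of other cells, such as Cd3g, Col1a1, Cdh1 and Ly6g, were above background on none of the 6. Other members of the lists for other cells were above it on all 6. In the T and NK cell list these were 5, among them Cd3e, Cd4 and Lck. In the B cell, fibroblast, and neutrophil and mast cell lists they were 2 each, among them Cd22, Acta2, Elane and S100a8.

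The 6 arrays did not sort by compound. VSG158 replicates 1 to 3 and VSG159 replicates 1 and 2 lay on slide 1, at positions 4 to 8, and VSG159 replicate 3 lay on slide 2 with FF and DEX. VSG159 replicate 3 correlated with VSG158 replicate 1 at 0.992, the highest of the 15 pairs, and with VSG159 replicates 1 and 2 at 0.966 and 0.971. VSG158 replicate 3 correlated with VSG159 replicate 1 at 0.985, and with VSG158 replicates 1 and 2 at 0.974 and 0.979. Pairs treated with the same compound ranged from 0.966 to 0.989, and pairs treated with different compounds from 0.964 to 0.992. VSG158 replicate 3 and VSG159 replicates 1 and 2 were also the brightest, with 75th percentiles of 1223, 1170 and 1220 against 736 to 848 on the other 3. They held 889, 541 and 559 spots of uneven signal against 31 to 75. The part of slide, position and brightness in any result was not tested beyond the fits given with it.

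**Figure D1:**
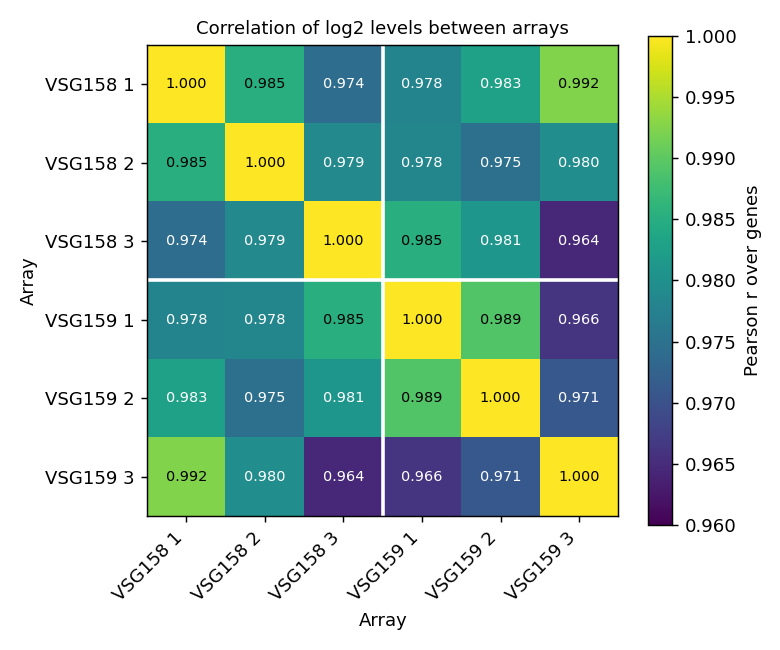
Pearson correlation of log2 levels over 18385 genes between each pair of the 6 arrays, named on both axes by compound and replicate, with colour running from 0.960 to 1. White lines separate the compounds; VSG159 replicate 3 is closest to VSG158 replicate 1 (0.992) and VSG158 replicate 3 to VSG159 replicate 1 (0.985).

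No gene differed between VSG158 and VSG159 past the threshold. The fit with limma over all 15 arrays called 0 of 19500 genes, 0% of those tested, at a Benjamini-Hochberg adjusted p under 0.05, and the smallest adjusted p was 0.803. At an unadjusted p under 0.05 there were 1203 genes, 6.17% of those tested, with 510 higher and 693 lower in VSG159. The median difference, VSG159 minus VSG158, was -0.03 log2 and the median size of a difference was 0.14. In the same fit VSG158 minus vehicle gave 8624 called genes (44.2%) and VSG159 minus vehicle 8595 (44.1%), comparisons that share the vehicle arrays.

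A call that is missed does not show that compounds act alike, and the 95% intervals of the differences were therefore counted. For 14269 genes, 73.2%, the whole interval lay within 2-fold in either direction, and for 10863 genes, 55.7%, within 1.5-fold. The share moved with brightness. Among the 14696 genes well above background on all 6 arrays, 86.4% had an interval within 2-fold, against 32.7% of the remaining 4804. For the genes outside these shares, the interval reached 2-fold or more.

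**Figure D2:**
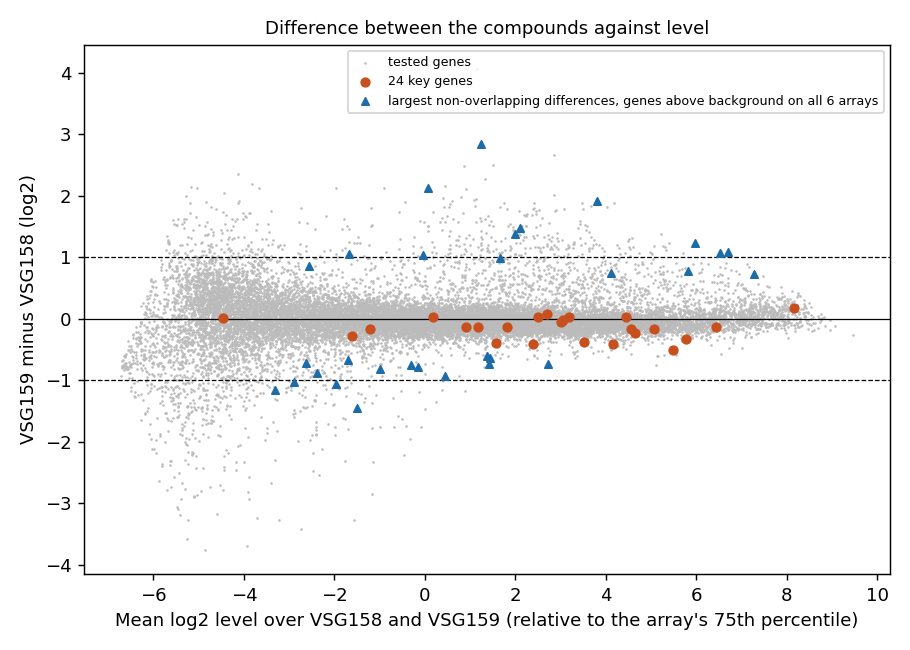
Difference between the compounds (VSG159 minus VSG158, log2) against the mean level over both compounds (log2, relative to the array's 75th percentile), a grey point per tested gene. Dashed lines mark 2-fold; the 24 key genes (orange) all lie between them, the largest differences among bright genes whose arrays did not overlap (blue triangles) reach 2.85, and the widest scatter is at low levels.

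Direct targets of the receptor were induced to similar levels by both compounds. Fkbp5, a receptor co-chaperone whose induction is a standard sign of receptor activity, stood at 4.66, 4.92 and 4.72 with VSG158 and at 4.59, 4.54 and 4.46 with VSG159, against 0.98 to 1.35 in vehicle. Every VSG159 array was below every VSG158 array, and all were far above vehicle. The difference was -0.24 (95% interval -0.53 to 0.06, n = 3 arrays per compound), and a second Fkbp5 probe gave 0.12 (-0.40 to 0.64). Tsc22d3, which encodes the anti-inflammatory protein GILZ, ranged from 2.91 to 3.20 with VSG158 and from 2.99 to 3.12 with VSG159. Those values overlapped, with a difference of -0.03 (-0.27 to 0.21). Klf9, a transcription factor induced by glucocorticoids, read 1.04, 1.12 and 0.78 against 0.79, 0.72 and 1.02, again overlapping (difference -0.14, -0.38 to 0.11).

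Other genes that glucocorticoids are known to induce stood as close between the compounds. Dusp1, the phosphatase that switches off p38 and JNK kinases, differed by -0.13 (-0.42 to 0.16). Per1, a clock gene, differed by 0.03 (-0.37 to 0.43), and Zfp36, which destabilises cytokine mRNA, by -0.16 (-0.50 to 0.18). Against vehicle, Dusp1 fell in these cells (-0.37 with VSG158 and -0.50 with VSG159), as did Zfp36 (-1.23 and -1.39), while Per1 was not called (-0.31 and -0.28). The receptor gene Nr3c1 itself read 2.61, 2.63 and 2.19 with VSG158 and 2.41, 2.41 and 2.69 with VSG159. Here VSG158 replicate 3 was lowest and VSG159 replicate 3 highest, the difference was 0.03 (-0.25 to 0.30), and a second Nr3c1 probe gave -0.32 (-0.61 to -0.04). The acute-phase gene Hp, which encodes haptoglobin, rose most of the key genes under both compounds. It read 4.69, 4.90 and 4.33 with VSG158 and 4.19, 4.36 and 4.85 with VSG159, against -2.77 to -2.38 in vehicle, and the compounds differed by -0.17 (-0.58 to 0.24).

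Among cytokine and inflammatory enzyme genes, Il6, Nos2, Il1b and Ptgs2 had lower means with VSG159, without a call. Il6, the cytokine that drives the acute-phase response, read 3.74, 3.67 and 3.69 with VSG158 and 3.43, 2.99 and 3.52 with VSG159. The groups did not overlap, and VSG159 replicate 2 was the lowest. Its VSG159 level was 0.764 times that with VSG158 (95% interval 0.635 to 0.919), a difference of -0.39, and its second probe gave -0.53. Nos2, the inducible nitric oxide synthase, read 5.84, 6.12 and 5.86 against 5.65, 5.37 and 5.82, also without overlap, though VSG159 replicate 3 came close to the lowest VSG158 array. The difference was -0.33 (-0.60 to -0.06).

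Il1b, encoding interleukin-1 beta, read 4.20, 4.47 and 4.44 with VSG158 and 4.22, 3.60 and 4.07 with VSG159. VSG159 replicate 1 lay inside the VSG158 range, and the difference was -0.41 (-0.73 to -0.08). Its other probes gave -0.45 (-0.84 to -0.06) and -1.01 (-1.76 to -0.25). Ptgs2, the inducible cyclooxygenase of prostaglandin synthesis, read 5.87, 6.05 and 5.30 against 5.12, 4.85 and 5.70. Here VSG158 replicate 3 sat with VSG159 replicates 1 and 2, and VSG159 replicate 3 sat with VSG158 replicates 1 and 2, and the difference was -0.52 (-0.98 to -0.05). Tnf, which encodes the early cytokine TNF, read 4.53, 4.21 and 4.58 against 4.47, 4.40 and 4.51 and differed by 0.02 (-0.24 to 0.27). Il10, the inhibitory cytokine, differed by -0.14 (-0.35 to 0.08).

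For Il6, Nos2, Il1b and Ptgs2 the interval lay below 0, while the limma adjusted p after correction over all genes was 0.803 for each of these 4. Both compounds stood far from vehicle, where Il6 read 5.77, 5.63 and 5.68 and Nos2 8.21, 8.32 and 8.36. That there was no overlap for Il6, Nos2 and Fkbp5 depended on the scaling. With each array scaled to its median all 3 overlapped, and the differences of Il6, Nos2 and Fkbp5 were then -0.25, -0.19 and -0.10, while the median of all genes was 0.11. Relative to that median, the Il6 difference ranged from -0.41 to -0.35 and that of Nos2 from -0.32 to -0.29 over 5 scalings. These scalings share their arrays, and median and percentile scaling give nearly equal relative differences by construction. Il6, Nos2 and Fkbp5 also overlapped in the deposited series values, and with background correction followed by quantile normalization. With quantile normalization alone, Nos2 overlapped while Il6 and Fkbp5 did not. Under each of these alternatives to median scaling, Il1b was lower in VSG159 without overlap.

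**Figure D3:**
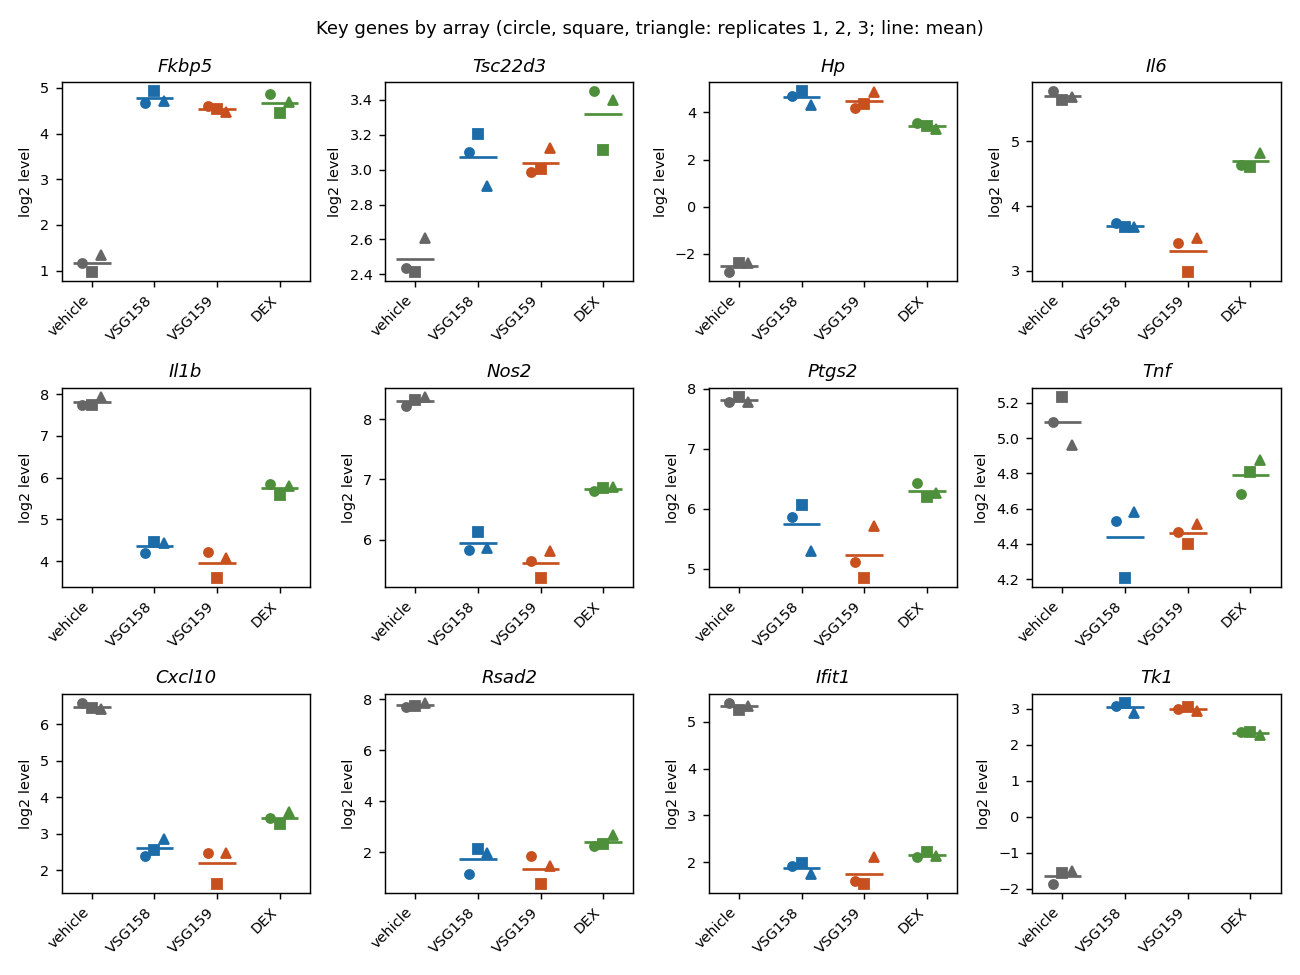
Log2 level (relative to the array's 75th percentile) of 12 key genes in vehicle, VSG158, VSG159 and DEX, a point per array with circle, square and triangle for replicates 1, 2 and 3 and a line at the mean. VSG158 and VSG159 lie close together and away from vehicle, and the 3 VSG159 arrays are below the 3 VSG158 arrays for Fkbp5, Il6 and Nos2 in this scaling.

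Chemokine and interferon-induced key genes had lower means with VSG159, apart from Ccl2, and none was called. Cxcl10, a chemokine for T cells induced by interferon whose promoter is printed above, read 2.39, 2.55 and 2.86 with VSG158 and 2.47, 1.63 and 2.45 with VSG159. VSG159 replicate 2 alone was below the VSG158 range, and the difference was -0.41 (-0.87 to 0.04). A second Cxcl10 probe gave -1.52 (-2.64 to -0.39). Rsad2, which encodes the antiviral enzyme viperin, read 1.17, 2.15 and 1.97 against 1.86, 0.78 and 1.48, with wide overlap (difference -0.39, -0.99 to 0.21), and its second probe gave -0.09. Ifit1 and Ifit2, which encode sensors of foreign RNA and relatives of them, differed by -0.14 (-0.43 to 0.15) and -0.28 (-0.64 to 0.08). The monocyte chemokine gene Ccl2 read 8.21, 8.07 and 7.96 against 8.11, 8.25 and 8.39 and differed by 0.17 (-0.07 to 0.41). Its neighbour in function Ccl12 differed by -0.17 (-0.44 to 0.09).

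Proliferation genes that both compounds raised did not separate them either. Tk1, the thymidine kinase of DNA synthesis, read 3.09, 3.16 and 2.87 with VSG158 and 2.99, 3.05 and 2.93 with VSG159, a difference of -0.05 (-0.31 to 0.21). Rrm2, the ribonucleotide reductase subunit, differed by 0.07 (-0.31 to 0.45). The matrix protease gene Mmp9 had a narrow spread, 0.15 to 0.19 with VSG158 and 0.12 to 0.27 with VSG159, and differed by 0.03 (-0.17 to 0.23). Mrc1, the mannose receptor gene, was above background on 1 VSG158 array and 2 VSG159 arrays, so its difference of 0.01 rests on values at background. Over the 24 key genes, 17 differences were negative and 7 positive. On the brightest probes all 24 intervals lay within 2-fold and 17 within 1.5-fold, and adjusted p-values from limma ran from 0.803 to 0.992. The arrays did not overlap for 3 key genes, all lower in VSG159. Over all 18543 genes with 6 values, 815 (4.40%) were lower in that way and 524 (2.83%) higher, and with median scaling the balance turned, to 119 lower and 197 higher. Of 13 other tested probes for 11 key genes, 9 had the sign of the main probe and 4 the opposite sign. Among these other probes, the intervals of the Cxcl10 probe and of the Il1b probe at -1.01 reached beyond 2-fold.

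**Figure D4:**
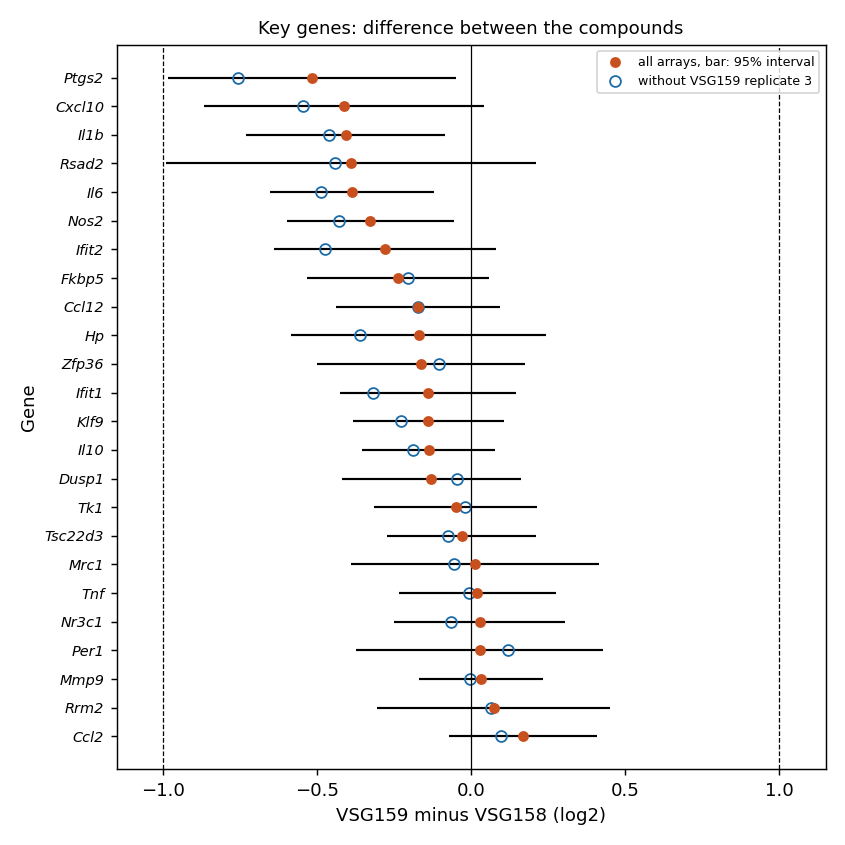
Difference between the compounds (VSG159 minus VSG158, log2) for the 24 key genes, ordered by size, with the limma estimate over all arrays (filled) and its 95% interval (bar), and the estimate without VSG159 replicate 3 (open circle). Dashed lines mark 2-fold. Every bar, each from the gene's brightest tested probe, lies between them, and leaving out VSG159 replicate 3 moved Ptgs2 from -0.52 to -0.76.

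Of the 846 tested genes in 45 lists for macrophage and steroid biology, 0 were called (limma). Genes named below as examples of a list were picked by the smallest limma p-values in it, up to 3 per list. Intervals that leave out 0 are therefore expected among them. Of the 42 lists with 5 or more tested genes, the medians ran from -0.21 to 0.08, around a median of -0.03 for all tested genes. Median scaling moved that median to 0.11 and the share of negative genes from 55.1% to 27.4%, so list medians are read against it. Relative to the median of all genes, 20 of the 42 lists were negative and 5 positive under all 5 scalings. Median and percentile scaling differ by a constant per array, which this comparison cancels, so their relative medians nearly agree by construction. All 5 scalings also use the same arrays, so these counts are no independent check of direction. Proinflammatory cytokines had a median of -0.20 over 18 tested genes, of which 15 were negative (83.3%). With median scaling it was -0.08, with 10 of 18 negative. Without VSG159 replicate 2 it was -0.09, and without VSG158 replicate 2 -0.12. In that list Lif, a cytokine of the interleukin-6 family, read -3.60, -3.60 and -3.07 with VSG158 and -4.11, -5.28 and -4.02 with VSG159, a difference of -1.05 (-1.70 to -0.39). Lif was above background on 2 of 3 arrays of each compound. Csf2, which encodes the growth factor GM-CSF, differed by -0.53 (-0.90 to -0.15), with 1 VSG158 value missing and left out of the fit.

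Among CXC chemokines the median was -0.09 over 10 genes, and its direction relative to all genes turned with the scaling. Leaving out 1 array gave -0.31 (without VSG158 replicate 3) to -0.04 (without VSG158 replicate 2). Cxcl3, a neutrophil chemokine gene, read 1.70, 2.03 and 1.66 with VSG158 and 1.17, 0.74 and 1.26 with VSG159. Cxcl2, another, read 5.90, 6.10 and 6.03 against 5.81, 5.35 and 5.76. Both pairs of groups were without overlap, with differences of -0.74 (-1.12 to -0.36) and -0.37 (-0.64 to -0.10). For CC chemokines 5 of 10 genes were negative and 5 positive.

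Nitric oxide, polyamine and eicosanoid enzymes had a median of -0.17 over 22 genes, 17 negative (13 with median scaling), with the leukotriene enzyme gene Ltc4s at -0.49 (-0.92 to -0.07) beside Nos2. Matrix metalloproteases and matrix proteins had -0.21 over 17 genes, -0.33 without VSG158 replicate 3 and -0.12 without VSG158 replicate 2. In MAPK phosphatases and mRNA decay factors the median was -0.11 and 18 of 21 genes were negative, among them Dusp10, at -0.48 (-0.82 to -0.14). With median scaling this list's median was 0.02, with 8 of 21 negative, and leaving out 1 array gave -0.21 to -0.06. Glycolysis and HIF-1 targets had -0.10 over 28 genes, and -0.16 to -0.04 with 1 array left out. In that list Adm, the gene for the vasodilator peptide adrenomedullin, read -0.72, -0.33 and -0.65 with VSG158 and -1.22, -1.82 and -1.14 with VSG159 (difference -0.83, -1.22 to -0.44), without overlap. Pdk1, a kinase gene that curbs pyruvate oxidation, and the glucose transporter gene Slc2a1 differed by -0.36 (-0.59 to -0.13) and -0.35 (-0.61 to -0.09), also without overlap.

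Interferon genes were tightly bounded. In type I interferon-induced antiviral genes the median was -0.06 over 43 genes, and all 43 intervals lay within 2-fold. Bst2, which tethers budding virus to the cell, read 6.02, 6.28 and 6.08 with VSG158 and 5.77, 5.93 and 5.84 with VSG159, and differed by -0.28 (-0.49 to -0.07). Isg15, the ubiquitin-like modifier, differed by -0.24 (-0.43 to -0.05), and the antiviral gene Oas3, with readings of 1.33 to 1.48 against 1.62 to 1.79, by 0.27. Interferon-induced GTPases and interferon gamma genes had a median of -0.01, and all 18 intervals were within 2-fold. There Gbp2, a guanylate-binding protein gene, was at 0.36 (0.06 to 0.66) and the cytokine signalling inhibitor gene Socs1 at -0.43 (-0.77 to -0.08). Against vehicle the type I list had medians of -1.21 with VSG158 and -1.32 with VSG159, and 42 of its 43 genes passed the threshold as lower with each compound, against 24.5% of all genes with VSG158 and 25.0% with VSG159.

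Receptor and growth lists had medians between -0.08 and 0.07. As for the lists above, the 5 scalings share their arrays, and median and percentile scaling give nearly equal relative medians by construction. Relative to the median of all genes, mitotic genes were positive under all 5 scalings (0.07 to 0.11). Genes known to be induced by glucocorticoids (-0.09 to -0.06) and steroid receptors and chaperones (-0.09 to -0.05) were negative under all 5. The glucocorticoid-induced list did not keep that offset without VSG159 replicate 3, with a median of -0.073 beside -0.074 for all genes. Steroid receptors and chaperones then had a median of -0.14. Genes known to be induced by glucocorticoids had a median of -0.08 over 32 genes. Against vehicle, 11 of these genes were called higher and 11 lower with each compound. Over all genes those counts were 3848 and 4776 of 19505 with VSG158, and 3723 and 4872 of 19499 with VSG159. Ddit4, an inhibitor of mTOR signalling, was at -0.47 (-0.87 to -0.06). Its mean was 5.63 in vehicle, 3.90 with VSG158 and 3.43 with VSG159, so it was not induced. The transcription factor gene Cebpd was at -0.23 (-0.46 to -0.01), with means of 6.44, 6.41 and 6.17 in the same order. Steroid receptors, chaperones and coregulators had a median of -0.08 over 14. DNA replication genes had a median of 0.03 over 35. Mitotic genes had 0.07 over 35, of which 9 were negative (25.7%, against 55.1% of all genes). With 1 array left out, the mitotic median ran from -0.08 to 0.18. Ribosomal proteins had a median of 0.02 over 42 with all 42 intervals within 2-fold, and of 32 sterol and fatty acid synthesis genes 16 were negative. The largest ribosomal protein difference in size was that of Rpl5, which read 7.10, 6.69 and 6.39 with VSG158 and 7.30, 7.44 and 7.13 with VSG159. Toll-like receptors and their adaptors had a median of -0.02 with members on both sides. Tlr4, which encodes the LPS receptor, read 3.16, 2.97 and 2.76 against 3.20, 3.73 and 3.26 (difference 0.43, 0.12 to 0.75), and Ticam2, which encodes an adaptor of that receptor, differed by -0.48 (-0.84 to -0.13).

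Macrophage markers had a median of 0.04 over 18 genes, with Cd68 at 0.31 (-0.01 to 0.64) and the lysozyme gene Lyz1 at 0.37 (-0.02 to 0.76), and all 18 intervals were within 2-fold. Bright genes of the lists for other cells did not all move alike. Cd4 read 5.12, 5.01 and 6.81 with VSG158 and 6.65, 6.40 and 4.72 with VSG159. The neutrophil elastase gene Elane read 5.36, 4.93 and 6.77 against 6.71, 6.54 and 4.78. Both were thus high on VSG158 replicate 3 and VSG159 replicates 1 and 2, the 3 brightest of the 6 arrays. Cd4 and Elane also had means of 6.15 and 6.26 with DEX, against 5.12 and 5.52 in vehicle and 5.01 and 5.27 with FF. The DEX arrays had 75th percentiles of 891, 906 and 840. S100a8, a calprotectin subunit gene in the list with Elane, stood at 6.26 or above with VSG158 and at 6.10, 5.95 and 6.38 with VSG159, with overlap and with VSG159 replicate 2 lowest. Lck, a T cell kinase gene, was lower on each VSG159 array (1.97, 1.96 and 1.95 against 1.86, 1.67 and 1.70), and Acta2, an actin gene, differed by 0.07 (-0.22 to 0.35). The summed levels of the T and NK cell list ran from 40.6 to 122.9 with VSG158 and from 33.5 to 110.6 with VSG159, where 1 is the array's 75th percentile. Of its 13 members on the array, 6 were above background on none of the 6 arrays. For the neutrophil and mast cell list the sums ran from 121 to 186 and from 111 to 173, with 8 of 13 members above background on none. The part of these genes in the results was not tested.

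**Figure D5:**
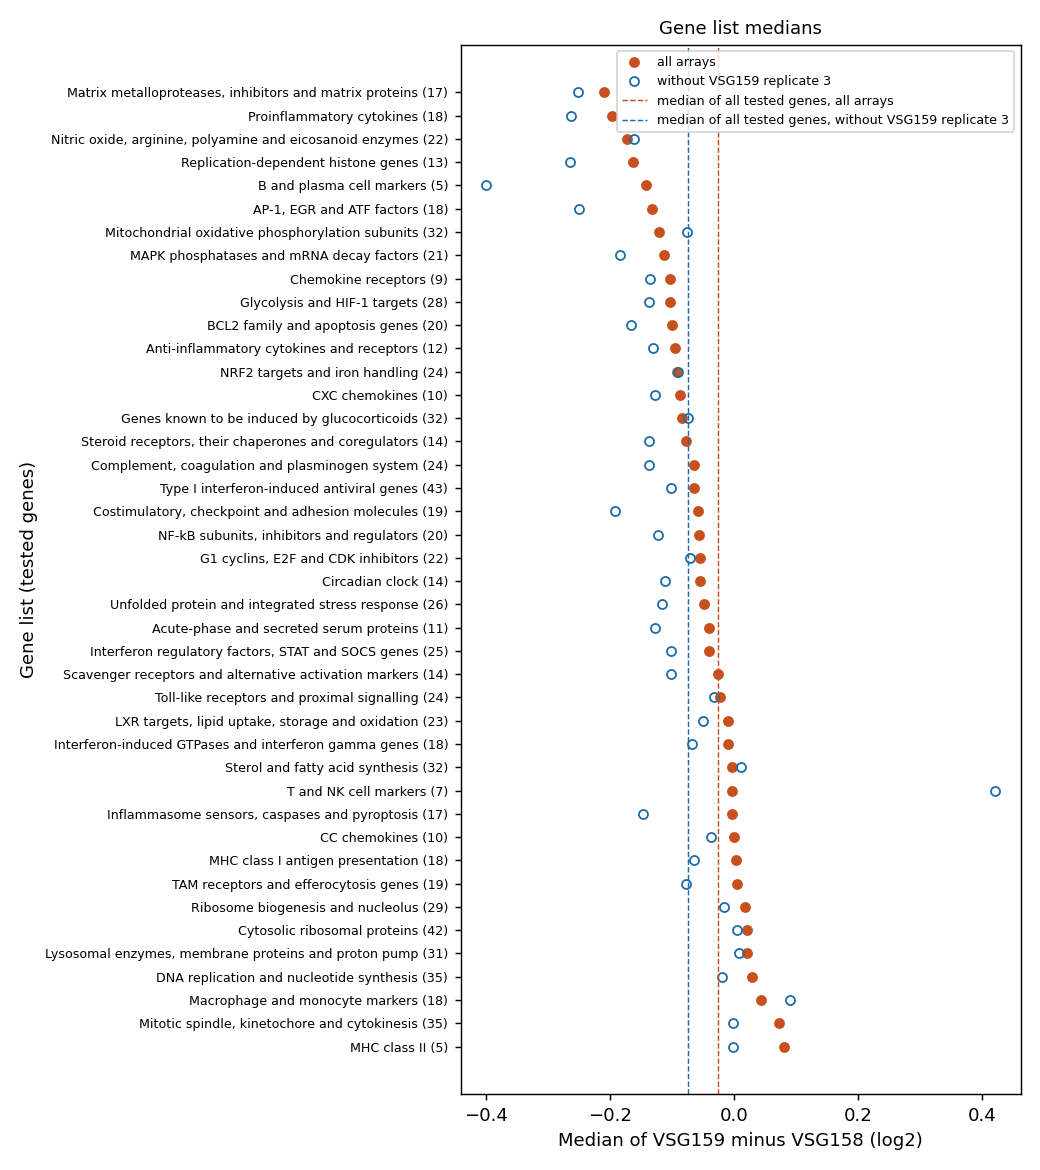
Median difference between the compounds (VSG159 minus VSG158, log2) over the tested genes of each of 42 lists, number of genes in brackets, with all arrays (filled) and without VSG159 replicate 3 (open). Dashed lines mark the medians over all tested genes (-0.03 and -0.07); with all arrays the lists run from -0.21 to 0.08, and the list of T and NK cell markers moves furthest without VSG159 replicate 3, to 0.42.

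Genes that answer to the reference steroids were then compared between the coded compounds. These sets hold the genes called and at least 2-fold changed between DEX or FF and vehicle. The differences came from those arrays, but the calls used the fit over all 15 arrays, whose spread includes that of the VSG158 and VSG159 arrays. The 1685 genes higher with DEX had a median of -0.03 between the compounds, and 1284 of them (76.2%) had an interval within 2-fold. The 1675 genes lower with DEX had a median of -0.02, and the 1706 higher with FF -0.01, with 86.1% of intervals within 2-fold. The 1530 genes lower with FF had a median of -0.09. Of these, 65.4% were negative, 7.41% were lower in VSG159 without overlap and 2.74% higher, against 4.40% and 2.83% of all genes. With median scaling its median was 0.048, beside 0.11 for all genes. No gene of any of the 4 sets was called between the compounds.

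The array on the other slide bore on those medians. Without VSG159 replicate 3 the genes lower with DEX had a median of -0.15 and those lower with FF -0.18, while the median of all genes was -0.07. By array, the mean centred level of the genes lower with DEX was 0.06, 0.10 and -0.09 in VSG158 and -0.11, -0.20 and 0.23 in VSG159. VSG159 replicate 3 was thus the highest of the 6 and VSG159 replicate 2 the lowest. Slide and compound cannot be told apart for that array by these values.

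Set against DEX in the same fit, VSG158 differed in 388 genes (1.99%) and VSG159 in 1082 (5.55%). Whether these counts differ was not tested, and they share the DEX arrays. DEX lay on slide 2 and VSG158 on slide 1, so slide and treatment cannot be told apart there. Against FF, 0 genes were called for either compound (limma, smallest adjusted p 0.356 for VSG158 and 0.233 for VSG159, with 1229 and 1177 genes at an unadjusted p under 0.05). For Il1b, VSG158 minus DEX was -1.37 and VSG159 minus DEX -1.78. For Il6 these differences were -0.99 and -1.38, and for Hp 1.22 and 1.05. Each of those 6 differences passed the threshold (limma adjusted p 0.000328 to 0.0128), while the direct differences between the compounds for these genes did not.

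The largest differences are given as values, since none was called. By the naming rule, genes with a plain symbol, an unadjusted p under 0.05 and no overlap between the 6 arrays were ranked by size, which left 147 higher and 298 lower in VSG159 to choose from. Of the 15 largest in each direction, 6 of the higher and 2 of the lower were above background on all 6 arrays, and 7 of the lower were above background on no array of either compound. For those 7, Rab30, Ms4a14, Rnf223, Krt23, Fam171b, Vps37d and Olfml2b, no fold is given. Where a gene was above background with 1 compound alone, the difference is a bound: Aplnr was at least 1.51-fold, Pcbd1 at least 1.33-fold and Brip1os at least 1.09-fold higher with VSG159, and Grrp1 at least 1.62-fold and Vmn2r57 at least 1.03-fold lower. These bounds are on group means. Aplnr read -1.71, -4.24 and -4.55 with VSG159, so VSG159 replicate 1 stood apart. Brip1os was above background on 2 VSG159 arrays, and Grrp1 and Vmn2r57 on 1 VSG158 array each. For Taar9, Tex35 and Garnl3, above background with VSG159 alone, the bound was under 1 and no fold is given. Mroh4, Gcg and Zdhhc22 (1.58, 1.33 and 1.17) and Sprr2h, Cd5l, Slc26a1 and Gabra2 (-1.47, -1.32, -1.22 and -1.21) were above background on only some arrays.

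Among genes above background on all 6 arrays, VSG159 replicates 1 and 2 stood highest for Gng4, Spry2, Srgap2 and Itgb7. Gng4, a G protein gamma subunit gene (probe at chr13:13876731-13876790, mm9), read 3.54, 2.24 and 2.75 with VSG158 and 4.93, 5.71 and 3.64 with VSG159, a difference of 1.92 (0.80 to 3.04). VSG159 replicate 3 lay near the highest VSG158 array. Spry2, an inhibitor of receptor tyrosine kinase signalling (probe at chr14:106291901-106291960), read 1.34, 1.10 and 1.49 with VSG158 and 2.87 and 3.71 on VSG159 replicates 1 and 2. VSG159 replicate 3 stood just above the highest VSG158 array, and the difference was 1.38 (0.25 to 2.52). Srgap2, a regulator of Rac at the cell edge, differed by 1.23, the integrin gene Itgb7 by 1.06 and the histone methyltransferase gene Suv39h2 by 0.72. A second probe of the same gene gave 0.18 for Spry2, 0.04 for Srgap2, 0.14 for Itgb7 and 0.16 for Suv39h2, each smaller than on the brightest probe. Olfactory receptor genes also stood in this group: Olfr1048, Olfr1441 and Olfr1252 differed by 2.85, 2.12 and 1.47. Gene families of near-identical members can share probe signal.

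The genes lower with VSG159 and bright on all 6 arrays had differences of smaller size. Mrgprg (-1.46) and Adcy6 (-1.16) came from the naming rule. The others below, like Itgb7 and Suv39h2 above, were chosen among bright genes after their values were seen. Nr1i3, a nuclear receptor gene of xenobiotic response (probe at chr1:173147776-173147835), read -2.69, -2.33 and -2.10 with VSG158 and -3.44, -3.62 and -3.18 with VSG159, a difference of -1.04 (-1.49 to -0.59). Chat, the choline acetyltransferase gene, read -1.63, -1.27 and -1.39 against -2.54, -2.78 and -2.16 (-1.07, -1.60 to -0.53), and its second probe gave -0.86 (-2.40 to 0.67). F3, the gene for tissue factor that starts coagulation, read 3.05, 3.32 and 2.92 against 2.51, 1.68 and 2.87, with VSG159 replicate 3 close to the VSG158 range. Ccr2, the receptor gene for Ccl2, read -2.58, -2.30 and -1.89 against -2.93, -3.11 and -2.91 (-0.73, -1.11 to -0.34). Beside them stand Adm and Cxcl3, described above, and P4ha2, a collagen prolyl hydroxylase gene, at -0.67.

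Leaving out 1 array produced calls that the 6 together did not give. Without VSG159 replicate 3, limma called 34 genes, 29 higher and 5 lower in VSG159, with adjusted p from 0.0350. In 3 of these, Nr2f2, Nars2 and Gm10624, VSG159 replicate 2 was missing as well, so a single VSG159 array carried the call and its spread was assumed to be that of the other groups. Slide as a fixed block called the same 34 genes, since the block is estimated from that array. In 14 of them VSG159 replicate 3 fell inside the VSG158 range. Stag2, a cohesin subunit gene, read 3.35, 2.54 and 2.38 with VSG158 and 5.67, 5.33 and 2.77 with VSG159. The nuclear import gene Kpnb1 read 3.18, 2.65 and 3.02 against 4.69, 4.77 and 2.52, and the histone modifier gene Kmt2e 2.34, 2.16 and 1.40 against 3.74, 4.04 and 2.09. In each, VSG159 replicates 1 and 2 stood alone. Of the 5 lower genes, Gipr, a gut hormone receptor gene, read -0.89, -0.86 and -1.17 against -1.66, -2.01 and -1.16, and Gabra2 -3.54, -3.08 and -3.36 against -4.99, -4.76 and -3.87. With slide 1 alone, which fits the same arrays without FF and DEX, 0 genes were called (limma, smallest adjusted p 0.0754, with 2196 genes at an unadjusted p under 0.05).

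Leaving out VSG158 replicate 1 called 35 genes, 4 higher and 31 lower in VSG159, and 0 of them were among the 34. In 9 of the 35 VSG158 replicate 3 was missing too, which left a single VSG158 array with a spread assumed from the other groups. In 25 of the 35 the gene was above background on no VSG159 array. Usp13, a deubiquitinase gene, read -7.31, -2.16 and -2.39 with VSG158 and -6.70, -7.03 and -7.32 with VSG159. Bhmt, a methionine synthesis gene, read -7.18, -2.70 and -2.88 against -6.88, -6.93 and -7.15. VSG158 replicates 2 and 3 were high and VSG158 replicate 1 was at the VSG159 level. Vehicle had Usp13 at -7.12 to -6.42 and Bhmt at -6.83 to -6.20, so the raised values stood on VSG158 replicates 2 and 3 among the 9 arrays named. Leaving out any 1 of the other 4 arrays called 0 genes (limma, smallest adjusted p 0.461 to 1.00, with 510 to 1953 genes at an unadjusted p under 0.05).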

How the data were processed

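Agilent one-colour scanner files were deposited for 15 arrays. Per the file headers, the authors ran Feature Extraction 10.7.3.1, whose processed signal intensity is background-subtracted and detrended; the array design names mm9. The deposited series values are log2, with array medians of 5.80 to 5.83, and correlate at 0.988 to 0.994 with log2 processed signal; how they were centred stays unknown. They served as an alternative. limma is the tool that the submitters' processing notes list, with no version.

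Control spots were dropped (59305 of 62976 spots kept), spots flagged as non-uniform or population outliers were set to missing (1891 values in tested genes), spots of a probe were averaged, and each array's log2 75th percentile was subtracted. Probes above background on at least 2 of 3 arrays of a group were tested (28508), with the brightest per gene name (19506 genes; 19500 had an estimate for this contrast). Names came from the files, 349 of 14760 matched genes updated through RefSeq. limma 3.58.1 in R 4.3.3 fitted group means over 15 arrays, two-sided, Benjamini-Hochberg adjusted, called under 0.05 (residual degrees of freedom 10, prior 1.64); the script was tested on simulated data. Intervals are 95% and moderated. A rank or permutation test of 3 against 3 arrays cannot give an exact p below 0.1. The number of arrays limits the precision.

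A bound ("at least N-fold") sets the brighter group's mean against, a floor for the dimmer group: on each array, the probe's own signal or the least signal that counts as well above background, whichever is greater. A list's level in an array is the mean over its members of the value minus the member's mean over the 6 arrays. The named genes are the 15 largest differences per direction among called, non-overlapping genes with plain symbols, filled with uncalled ones at an unadjusted p under 0.05, plus 24 key genes and up to 3 examples per list by adjusted p. Members, lists and genes were chosen with earlier results of these data known. The NF-kB letters were searched after the data were seen. Replicate numbers did not pair the arrays: deviations from group means of same-numbered arrays correlated at -0.56, -0.27 and -0.55. Alternatives covered samples, slide, position, weights, scaling, background correction, filters, spots and probes.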

Additional observations from a re-analysis of the deposited data

How the results depend on the processing

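The count of 0 called genes held under 19 of 22 alternatives: the 6 arrays alone, slide as a random block, slide 1 alone, slide with array position, array weights, 4 other scalings or value sources, outlier spots kept, 3 filters (above background on all 6 arrays was added after seeing the data), every tested probe, and 4 of 6 arrays left out. The fit with a replicate block, the last of the 19, also called 0 genes (limma, smallest adjusted p 0.515, 961 genes at an unadjusted p under 0.05). The unadjusted count was 534 with the 6 arrays alone and 5631 with array weights, where the smallest adjusted p was 0.0735. Slide as a fixed block called 34, and leaving out 1 array each called 0 to 35. The number of genes with a 95% interval within 2-fold stayed between 12519 and 21270, the latter over 28501 probes, and leaving out 1 array gave 13442 to 14065. No key gene was called under any alternative, and 15 of 24 kept their sign. All 52 other named genes kept theirs, and 3 (Rnf223, Gabra2, Ms4a4b) were called under at least 1. Those 52 were chosen because their 6 arrays did not overlap, so leaving out an array could not turn their sign. Their kept signs are therefore no sign of stability. Rnf223 was above background on no array of either compound. Ms4a4b was called only without VSG158 replicate 1. Its second probe gave -0.09 (-0.38 to 0.20), against -0.75 on the main probe. Of the 45 list medians, 5 kept their sign. Median scaling moved the median of all genes to 0.11 and the medians of genes higher with DEX, higher with FF and lower with FF to 0.11, 0.12 and 0.048. Array weights, which were 0.25 for VSG158 replicate 3 and 0.20 for VSG159 replicate 3, gave -0.10 for genes higher with FF. The median of all genes was then -0.10 as well. The cause was not tested. With no filter on dim probes the median of all genes was -0.20. Of genes not above background on all 6 arrays, 32.7% had an interval within 2-fold.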
